A study of Mus musculus with 55 samples.

Results

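The 5 genes described here encode the cyclin-dependent kinase that drives cells into mitosis, Cdk1, its mitotic activators cyclin A2 (Ccna2), cyclin B1 (Ccnb1) and cyclin B2 (Ccnb2), and cyclin F (Ccnf), a relative that works in protein destruction. They were chosen by name, and all 5 of 5 were found in both tables of the series, which list 9911 genes for CCNA-GFP cells and 10237 genes for CTCF-AID cells. RNA-seq was made from asynchronous cells, from cells held in mitosis and from cells collected at intervals once the block was washed out, and its reads on pre-mRNA are the measurement here. Pre-mRNA is the unspliced transcript, so that its level follows ongoing transcription more closely than that of the mature mRNA. Levels are given in the deposited TPM, which are scaled by the length of each pre-mRNA. They are not plain shares of a library's transcripts, since within a library they come in equal increments, from 1.84 to 3.81 times 0.01 TPM depending on the library, and that multiplier is called the step factor here.

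Both lines, CCNA-GFP and CTCF-AID, derive from E14Tg2a mouse embryonic stem (ES) cells of strain 129/Ola, grown in serum and LIF. CCNA-GFP cells carry a cyclin A-GFP reporter of the cell cycle, and CTCF-AID cells are 1 clone in which the chromatin protein CTCF bears a degron tag, so that the auxin IAA triggers its destruction. Mitotic and released cells of every arm had been exposed to the CDK1 inhibitor RO-3306 at 10 µM for 4 h and then to nocodazole at 50 ng/ml for 4 h, before shake-off. Asynchronous cells had no block, so a comparison with them is also one of blocked with unblocked cells. IAA at 0.5 mM was added for the last 2 h of nocodazole and kept during release, and asynchronous cells of the arm with IAA were exposed to it for 4 h. In CCNA-GFP cells there were 3 mitotic and 3 asynchronous libraries, 2 at each of 20, 30, 40, 60, 90 and 120 min and 1 at 50 min, 19 in all. In CTCF-AID cells each arm, without or with IAA, had 3 mitotic and 3 asynchronous libraries and 2 at each of 20, 40, 50, 60, 90 and 120 min, 36 libraries in all. Released cells were not sorted, and in such bulk samples fewer cells that left mitosis and less pre-mRNA per cell cannot be told apart. The ES cell markers Pou5f1 and Nanog were at 4.56 TPM and 3.10 TPM or more in every library, and 8 of 9 ES cell markers were listed in both tables, with a summed level of 27.1–111 TPM in CCNA-GFP and 39.2–133 TPM in CTCF-AID libraries. Of 4 primitive endoderm markers 0 were listed in both tables, and the listed mesoderm markers (T and Eomes, 2 of 4) summed to at most 5.55 TPM, the listed fibroblast markers (1 of 4 in CCNA-GFP, 3 of 4 in CTCF-AID) to at most 9.96 TPM and the single listed trophoblast marker, Cdx2, to at most 3.51 TPM. No read counts are known, so neither depth nor counting error can be given. The TPM of all listed genes summed to 13747–17245 in mitotic and 30992–42576 at 60 min in CCNA-GFP libraries, and to 17777–23302 and 37872–39173 in CTCF-AID libraries.

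Cdk1 is inactive on its own and is switched on by binding a cyclin. Cyclin A2 partners Cdk2 during DNA replication and Cdk1 on the way into mitosis, while the B-type cyclins partner Cdk1 through prophase and metaphase. Destruction of these cyclins by the anaphase-promoting complex allows cells to leave mitosis, and their genes are usually transcribed again late in the next cycle. Cyclin F binds no cyclin-dependent kinase and is instead the substrate-recognising subunit of an SCF ubiquitin ligase. In ES cells G1 is short.

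In Gencode vM21 on GRCm38, the assembly also named mm10, all 5 genes lie on the minus strand. Ccna2 spans chromosome 3, bases 36564865 to 36572150, with 8 exons in its longest coding transcript, and overlaps the oppositely oriented Exosc9 by 863 bases, which the stranded libraries can separate. Ccnb1 spans chromosome 13, bases 100778650 to 100786570, with 9 exons, and Ccnb2 chromosome 9, bases 70407692 to 70421547, with 9 exons. Ccnf spans chromosome 17, bases 24222198 to 24251484, with 17 exons and 2 microRNA genes within it, and Cdk1 chromosome 10, bases 69335146 to 69352938, with 8 exons. The genes are 7.3 kb (Ccna2), 7.9 kb (Ccnb1), 13.9 kb (Ccnb2), 29.3 kb (Ccnf) and 17.8 kb (Cdk1) long.

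Promoters of genes used in G2 and mitosis commonly hold a cell cycle homology region (CHR) near the start site with CCAAT boxes, bound by NF-Y, upstream of it. RefSeq promoter windows (GRCm38.p6) were matched for 4 members, Ccnb1, Ccnb2, Ccnf and Cdk1, and are shown 5′ to 3′ on the minus strand from 250 bases before to 30 bases after the start site. Capitals mark matches on either strand to TTTGAA (CHR) and CCAAT (NF-Y), none of which overlap each other. The windows are chr13:100786457-100786736 (Ccnb1), chr9:70421525-70421804 (Ccnb2), chr17:24251380-24251659 (Ccnf) and chr10:69352883-69353162 (Cdk1).
Ccnb1: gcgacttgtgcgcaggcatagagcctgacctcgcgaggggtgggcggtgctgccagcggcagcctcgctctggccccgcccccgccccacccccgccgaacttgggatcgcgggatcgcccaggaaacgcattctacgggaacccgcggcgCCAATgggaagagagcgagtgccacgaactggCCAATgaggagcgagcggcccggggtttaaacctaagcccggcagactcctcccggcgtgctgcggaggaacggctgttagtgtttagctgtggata
Ccnb2: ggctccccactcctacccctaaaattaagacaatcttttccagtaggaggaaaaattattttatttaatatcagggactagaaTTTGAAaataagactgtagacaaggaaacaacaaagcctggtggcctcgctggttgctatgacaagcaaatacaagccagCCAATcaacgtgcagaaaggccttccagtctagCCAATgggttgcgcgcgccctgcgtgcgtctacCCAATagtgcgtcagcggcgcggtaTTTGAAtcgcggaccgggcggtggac
Ccnf: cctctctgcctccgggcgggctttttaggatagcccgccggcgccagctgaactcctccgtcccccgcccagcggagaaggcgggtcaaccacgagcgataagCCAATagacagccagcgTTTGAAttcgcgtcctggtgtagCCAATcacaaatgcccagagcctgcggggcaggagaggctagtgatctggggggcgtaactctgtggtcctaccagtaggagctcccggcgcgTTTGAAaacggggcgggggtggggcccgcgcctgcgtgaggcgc
Cdk1: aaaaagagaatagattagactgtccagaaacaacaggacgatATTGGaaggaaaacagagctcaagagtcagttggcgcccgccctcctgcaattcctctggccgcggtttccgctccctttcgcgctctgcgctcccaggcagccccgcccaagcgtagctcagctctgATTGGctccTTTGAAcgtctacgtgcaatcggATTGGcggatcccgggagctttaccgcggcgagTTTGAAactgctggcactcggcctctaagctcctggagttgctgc
CCAAT occurred 2 times in the Ccnb1 and Ccnf windows of that length and 3 times in those of Ccnb2 and Cdk1, and TTTGAA 2 times each in Ccnb2, Ccnf and Cdk1 and 0 times in Ccnb1. The TTTGAA nearest the start site began 14 bases before it in Ccnf and 15 bases before it in Cdk1, and 4 bases after it in Ccnb2. The 3 CCAAT boxes of Ccnb2 began 87, 54 and 21 bases before the start site and were thus evenly spaced. Of all 32851 RefSeq windows, from 250 before to 50 after a start site, 17.9% held TTTGAA and 2.31% held it 2 or more times, while 37.4% held CCAAT and 11.7% held it 2 or more times. For the 10432 windows of genes listed in the CTCF-AID table, to which the members belong, these shares were 11.3%, 0.978%, 38.5% and 15.0%. The letters TTCCCGC, searched as 1 form of the E2F motif, occurred in 0 of the 4 member windows, in 4.60% of all windows and in 9.03% of those of listed genes. These are matches of letters, not measured binding sites. Only these exact letters were sought, so a count of 0 does not show that a window lacks other forms of the CHR or E2F motif.

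TPM are scaled per length, so levels can be set side by side between genes. Ccnb1 had the highest level of the members in 55 of 55 libraries and Cdk1 the next in 55 of 55. Ccnf held the third place in 45 of 55. Ccna2 and Ccnb2 exchanged places with the stage. Ccna2 lay below Ccnb2 in every mitotic library, being above it in 0 of 9, and above it in 29 of 29 libraries from 40 to 120 min. Ccnb1 was also high among all genes, above a median of 99.5% of them in CCNA-GFP libraries and of 97.8% in CTCF-AID libraries without IAA, while Ccnb2 was above a median of 62.1% and 54.8%.

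**Figure D1:**
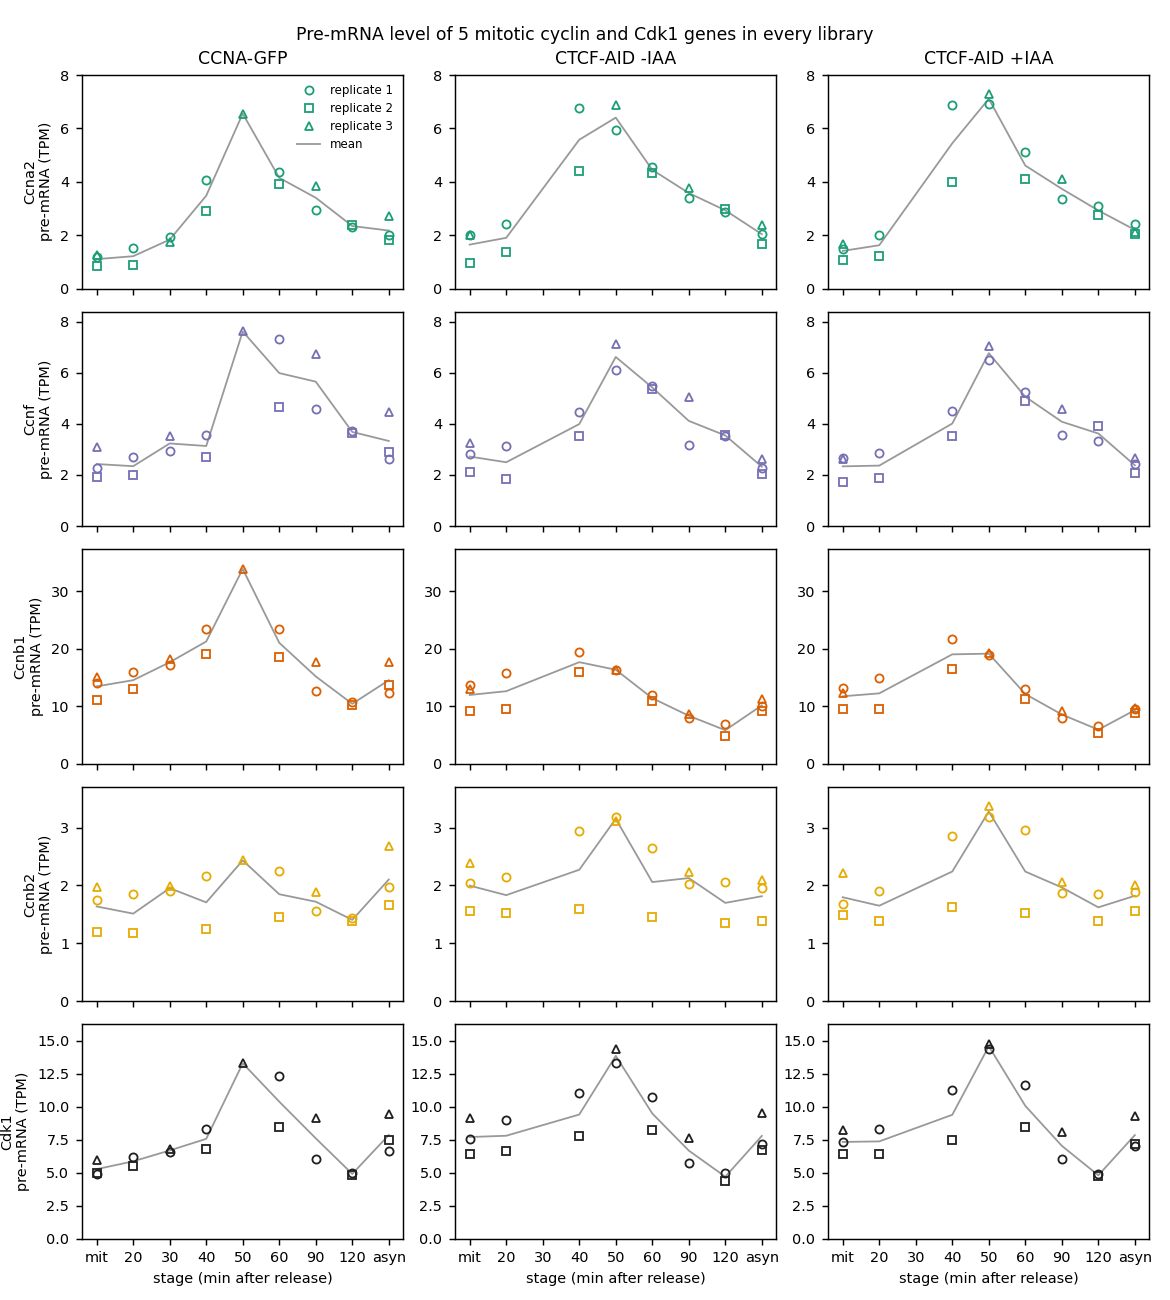
Pre-mRNA level in TPM (vertical axis from 0, 1 scale per gene) of the 5 genes by stage (horizontal axis, stages evenly spaced: mit, mitotic; minutes after release; asyn, asynchronous) in the 3 arms. Symbols are single libraries by replicate number and the grey line joins stage means. The highest mean after release lies at 50 min in all panels except Ccnb1 without IAA, where it lies at 40 min (in CCNA-GFP cells 50 min is 1 library of replicate 3, and in the CTCF-AID arms it holds replicates 1 and 3 where 40 and 60 min hold 1 and 2). In replicate 1, which has both stages, Ccna2 without IAA was 6.76 TPM after 40 min and 5.95 after 50 min and Ccnb1 with IAA 21.6 and 19.0. The lowest mean of Ccnb1, Ccnb2 and Cdk1 lies at 120 min in each arm.

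The first question was when the pre-mRNA of each gene rose after mitosis. Each stage was compared with mitosis in log2(TPM + 1) by limma with the replicate as a block, and a gene was called at an adjusted p below 0.05. In CCNA-GFP cells 0 members were called after 20 or 30 min, 4 higher after 40 min, 4 higher after 60 min, 3 higher after 90 min, 2 higher after 120 min and 4 higher in asynchronous cells. At an unadjusted p below 0.05 limma gave 0 members after 20 min, among 253 genes, and 1 after 30 min, among 1135 genes, namely Ccna2, at 0.34 (limma, adjusted p = 0.233). The share of all genes called higher was 0% after 20 min, 0.303% after 30 min, 49.3% after 40 min, 88.3% after 60 min, 89.1% after 90 min, 90.2% after 120 min and 70.4% in asynchronous cells. On the deposited scale most genes of the table thus rose, and being above mitosis after 60 min was common to the members and the rest. After 120 min 2 of 5 members, Ccna2 and Ccnf, were called higher. The 4 members called at 40 min became 2 without replicate 1 and also without the replicate block, where Ccnf and Cdk1 were no longer called, and the genes called higher then fell from 4888 to 2621 and 2362. Without the block the call of Ccnf at 120 min also ended, and in asynchronous cells those of Ccnb2 and Ccnf ended without the block, without replicate 2 and without replicate 3. The 30 genes behind the share at 30 min became 246 with a pseudocount of 0.1, 187 with a filter at a mean of 1 TPM, 360 with the step factor, 309 without replicate 2, 18 without replicate 3 and 0 without replicate 1, without the trend and without the block, each taken alone.

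Without IAA 0 members were called after 20 min, 4 higher after 40 min, 5 after 50 min, 3 after 60 min, 2 after 90 min, 2 after 120 min and 0 in asynchronous cells. In this CTCF-AID arm the share of all genes called higher was 0%, 63.3%, 79.1%, 84.8%, 74.8%, 69.6% and 34.3% at these stages. After 20 min 397 genes and 0 members had an unadjusted p below 0.05 without IAA, and 149 genes and 0 members with IAA. Ccnb1 and Cdk1 were the 2 members called lower than in mitosis after 90 min and again after 120 min, where 3.37% and 3.15% of all genes were called lower. With IAA the counts of members called higher were 0 after 20 min, 5 after 40 min, 5 after 50 min, 4 after 60 min, 2 after 90 min, 2 after 120 min and 1 in asynchronous cells, beside 0%, 58.7%, 78.2%, 82.2%, 73.8%, 68.2% and 40.9% of all genes. Called lower with IAA were 1 member after 90 min (Ccnb1), 2 after 120 min (Ccnb1 and Cdk1) and 1 in asynchronous cells (Ccnb1), beside 4.41%, 4.42% and 5.89% of all genes. Without replicate 1 the calls of Cdk1 at 40 min in both CTCF-AID arms and of Ccnb2 at 40 and 60 min with IAA ended, and without replicate 2 those of Ccnf at 120 min in both arms. In asynchronous cells with IAA the call of Ccna2 ended without replicate 1, and that of Ccnb1 without replicate 1 or replicate 3. Without the block all of these ended but that of Ccnf at 120 min with IAA, and so did those of Ccnf at 40 min without IAA and of Cdk1 at 60 min in both arms. The shares over all genes moved too. With equal totals the genes higher without IAA fell from 6477 to 3410 after 40 min and 8099 to 4171 after 50 min. They fell from 7658 to 3531 after 90 min and 7125 to 3271 after 120 min. With IAA the falls were 6008 to 3397, 8009 to 4194, 7555 to 3763 and 6981 to 3428. Without the block 4327 and 4477 were higher after 120 min without and with IAA. The 3515 genes higher in asynchronous cells without IAA became 6753 with the step factor, 1192 without the block and 1770 without replicate 3, and the 4185 with IAA became 6869, 1775 and 2753. The 345 and 322 genes lower after 90 and 120 min without IAA became 2621 and 2651 with equal totals, and the 451 and 452 with IAA became 2804 and 2943. Without the block they fell instead, to 147 and 174 without IAA and 201 and 263 with IAA.

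The scale of the libraries bears on every comparison with mitosis. The median log2 difference of all genes from mitosis at 60 min was 0.79 in CCNA-GFP cells and 0.63 in CTCF-AID cells both without and with IAA, on the deposited scale. When every library was scaled to the same total of listed TPM these medians became 0.021, 0.058 and 0.063, and at 60 min 3607 genes were called higher and 3302 lower in CCNA-GFP cells, against 8749 higher and 51 lower as deposited. Without IAA these numbers were 4030 higher and 3181 lower with equal totals, against 8677 and 276. In CCNA-GFP cells equal totals gave 2347 genes higher and 3100 lower at 40 min. They gave 3155 and 2593 at 90 min and 2457 and 2016 in asynchronous cells. With equal totals 1 member (Ccna2) was called higher and 3 (Ccnb1, Ccnb2 and Cdk1) lower at 60 min. This held in CCNA-GFP cells and in CTCF-AID cells without IAA. At 50 min Ccna2 and Ccnf were called higher on that scale in both CTCF-AID arms, Ccnb1 lower in both and Ccnb2 lower without IAA. Of all 10237 genes 4171 were then called higher and 3438 lower without IAA, and 4194 and 3630 with IAA. After 90 min Ccnb1, Ccnb2 and Cdk1 were called lower in all 3 arms. Ccna2 was then called higher in both CTCF-AID arms, and no member was called higher in CCNA-GFP cells. Beside these calls 3531 genes were higher and 2621 lower without IAA at 90 min, and 3763 and 2804 with IAA. The members are therefore also given relative to the median gene, as the log2 difference minus that of the median gene in the same comparison. Where a share of genes with a smaller or larger difference is given, it is on log2(TPM + 1), which understates changes of genes with low TPM. Ranks of Ccnb1 and Cdk1, the members with the highest levels, are to be read with that limit.

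**Figure D2:**
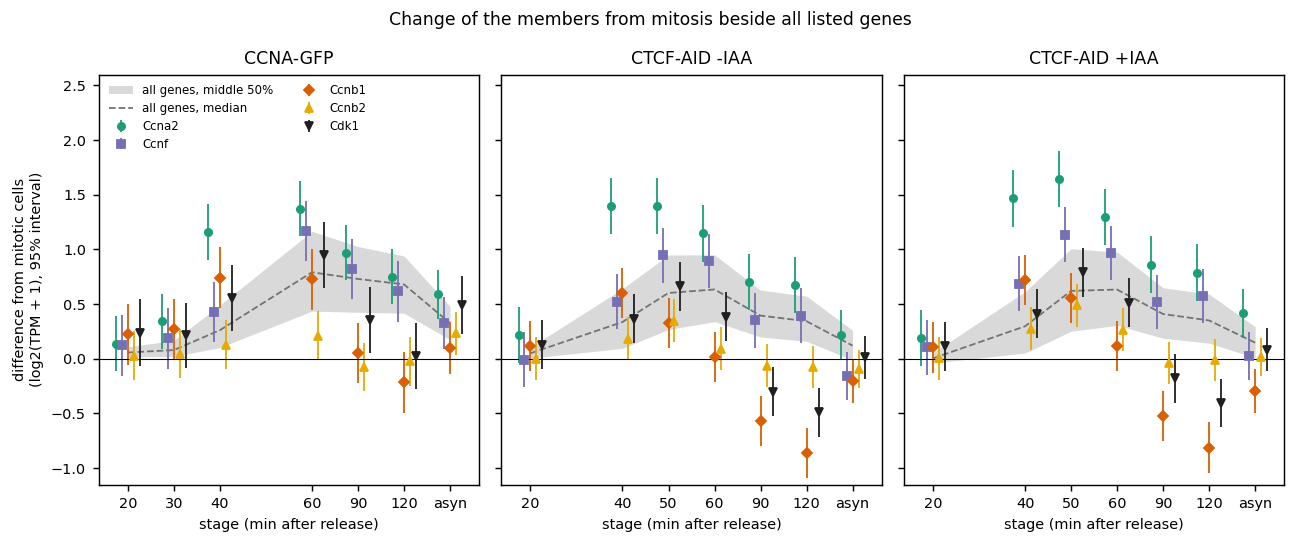
Difference from mitotic cells in log2(TPM + 1) (vertical axis) of the 5 genes by stage (horizontal axis, minutes after release; asyn, asynchronous) in the 3 arms, as limma estimates with 95% intervals, beside the median and the middle 50% of all listed genes. Ccna2 lies above the grey band at 40 and 60 min, while Ccnb1 lies below it at 90 and 120 min and below 0 at 120 min. With equal totals Ccna2 stays above 0 at 40 and 60 min and Ccnb1, Ccnb2 and Cdk1 turn below 0 at 60 min.

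Ccna2, the cyclin of S phase and G2, was the member with the largest rise from mitosis at 60 min in each arm. In CCNA-GFP cells its level was 1.18, 0.864 and 1.27 TPM in mitosis, 1.54 and 0.890 after 20 min, 1.94 and 1.73 after 30 min, 4.07 and 2.89 after 40 min and 6.56 in the single library at 50 min. It then was 4.38 and 3.92 TPM after 60 min, 2.96 and 3.85 after 90 min, 2.31 and 2.38 after 120 min and 2.00, 1.82 and 2.70 in asynchronous cells. All libraries from 40 to 120 min lay above all mitotic libraries, and those at 120 min fell within the asynchronous range. The levels in CTCF-AID cells without IAA were 2.00, 0.952 and 1.99 TPM in mitosis, 2.42 and 1.38 after 20 min, 6.76 and 4.39 after 40 min and 5.95 and 6.86 after 50 min. Later they were 4.57 and 4.33 TPM after 60 min, 3.40 and 3.76 after 90 min, 2.87 and 2.99 after 120 min and 2.06, 1.67 and 2.38 in asynchronous cells. Here the libraries at 120 min lay above all asynchronous ones.

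The difference of Ccna2 from mitosis was 1.16 (SE 0.12, limma, adjusted p = 4.1e-07) at 40 min and 1.37 (SE 0.12, limma, adjusted p = 2.5e-09) at 60 min in CCNA-GFP cells. At 40 min this was larger than the difference of 97.4% of all genes and 0.90 above the median gene, and at 60 min it was larger than in 85.6%. Without IAA the CTCF-AID difference was 1.39 (SE 0.12, limma, adjusted p = 2e-09) at 40 min, larger than in 97.0% of genes. It was 1.15 (SE 0.12, limma, adjusted p = 1e-08) at 60 min. With equal totals Ccna2 was still called higher at 60 min in all 3 arms, by 0.47 in CCNA-GFP cells, 0.45 without IAA and 0.61 with IAA (limma, adjusted p = 0.00146, 0.00097 and 3.9e-05). At 120 min it was higher than in mitosis by 0.75 in CCNA-GFP cells and 0.68 in CTCF-AID cells without IAA (limma, adjusted p = 9.5e-06 and 5.1e-05). With equal totals these were 0.033, not called, and 0.30, still called. Without replicate 2 the deposited difference at 120 min without IAA was 0.42 (limma, adjusted p = 0.00774), still called.

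One line carries the cyclin A-GFP reporter, and whether its transcript adds to the Ccna2 value is not given in the sources used here. The tables may have been normalised separately, so Ccna2 was set against the other 4 members within each library, as the ratio of its TPM + 1 to their geometric mean, which no scaling between libraries enters apart from the added 1. This ratio was 0.395 ± 0.020 (SD, n = 3) in mitotic, 0.403 ± 0.029 (n = 2) at 20 min, 0.658 ± 0.014 (n = 2) at 40 min, 0.623 ± 0.096 (n = 2) at 60 min and 0.487 ± 0.030 (n = 3) in asynchronous CCNA-GFP cells. In CTCF-AID cells without IAA, for which no cyclin reporter is named, it was 0.442 ± 0.045 (n = 3), 0.494 ± 0.010 (n = 2), 0.872 ± 0.053 (n = 2), 0.774 ± 0.078 (n = 2) and 0.553 ± 0.010 (n = 3) at the same stages. The line with the reporter had the lower mean ratio at each of these 5 stages, but against Cdk1 alone the order turned in mitosis, with 0.336 in CCNA-GFP cells and 0.303 in CTCF-AID cells without IAA, and in asynchronous cells, with 0.360 and 0.348. In both of these arms every library at 40 min had a higher ratio to the other 4 members than every mitotic library.

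Ccnf, the F-box protein that marks such substrates as the ribonucleotide reductase subunit Rrm2 for destruction, had its highest mean at 50 min in both CTCF-AID arms. In CCNA-GFP cells the value at 50 min is 1 library of replicate 3, and as a ratio of TPM + 1 to mitosis of the same replicate Ccnf was 2.10 there against 2.54 and 1.94 in the libraries at 60 min. In CCNA-GFP cells its level was 2.26, 1.93 and 3.09 TPM in mitosis, 2.69 and 2.00 after 20 min, 2.92 and 3.54 after 30 min, 3.58 and 2.68 after 40 min and 7.61 after 50 min. The values at 60 min were 7.31 and 4.67 TPM, at 90 min 4.58 and 6.72, at 120 min 3.71 and 3.66 and in asynchronous cells 2.64, 2.90 and 4.45. The libraries at 40 min overlapped the mitotic ones and those at 50, 60, 90 and 120 min did not. Ccnf in CTCF-AID cells without IAA was at 2.83, 2.10 and 3.24 TPM in mitosis, 3.14 and 1.85 after 20 min, 4.47 and 3.51 after 40 min, 6.11 and 7.12 after 50 min and 5.49 and 5.36 after 60 min. It was at 3.18 and 5.05 TPM at 90 min, 3.51 and 3.58 TPM at 120 min and 2.29, 2.04 and 2.64 TPM in asynchronous cells, and there all 3 libraries lay below both libraries at 120 min.

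The Ccnf difference from mitosis was 0.43 (SE 0.13, limma, adjusted p = 0.0115) at 40 min and 1.17 (SE 0.13, limma, adjusted p = 7.3e-08) at 60 min in CCNA-GFP cells, the latter 0.38 above the median gene. In CTCF-AID cells without IAA it was 0.89 (SE 0.12, limma, adjusted p = 3.1e-07) at 60 min, 0.26 above the median gene. With equal totals the 40 min difference in CCNA-GFP cells turned to −0.027 (adjusted p = 0.74), and the 60 min differences in CCNA-GFP cells and without IAA were no longer called, at 0.10 and 0.12 (limma, adjusted p = 0.18 and 0.145). Without IAA the 50 min difference stayed called, at 0.20 (limma, adjusted p = 0.0187), and with IAA Ccnf was called higher after 40, 50 and 60 min, at 0.25, 0.36 and 0.21 (limma, adjusted p = 0.00473, 0.00013 and 0.0141). By 120 min it was 0.62 and 0.40 in CCNA-GFP cells and without IAA (limma, adjusted p = 0.00022 and 0.00566), −0.063 and 0.052 from the median gene. With equal totals the sign at 120 min turned in both arms, to −0.26 (limma, adjusted p = 0.00509) and −0.042 (adjusted p = 0.646). On the deposited scale the 40 min difference in CCNA-GFP cells was 0.33 without replicate 1 (limma, adjusted p = 0.161), and the 120 min difference without IAA was 0.26 without replicate 2 (adjusted p = 0.131), neither called.

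Ccnb1, the main activator of Cdk1 in mitosis, was above mitosis at 40 min on the deposited scale, and below it at 120 min. In CCNA-GFP cells it stood at 14.1, 11.1 and 15.1 TPM in mitosis, 16.0 and 13.0 after 20 min, 17.1 and 18.2 after 30 min, 23.4 and 19.1 after 40 min and 33.9 after 50 min. It stood at 23.4 and 18.6 TPM after 60 min, 12.6 and 17.7 after 90 min, 10.7 and 10.1 after 120 min and 12.3, 13.7 and 17.6 in asynchronous cells. Both libraries at 120 min lay below every mitotic and every asynchronous library. In CTCF-AID cells without IAA the values were 13.7, 9.13 and 13.0 TPM in mitosis, 15.7 and 9.49 after 20 min, 19.4 and 15.9 after 40 min, 16.3 and 16.4 after 50 min and 11.9 and 10.9 after 60 min. Then followed 7.98 and 8.69 TPM at 90 min, 6.87 and 4.75 TPM at 120 min and 10.0, 9.19 and 11.2 TPM in asynchronous cells. At 120 min both libraries again lay below every mitotic and asynchronous library of the arm.

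The difference of Ccnb1 from mitosis at 40 min was 0.74 (SE 0.13, limma, adjusted p = 0.00013) in CCNA-GFP cells and 0.60 (SE 0.11, limma, adjusted p = 4.5e-05) in CTCF-AID cells without IAA. With equal totals neither was called, at 0.17 and 0.0097 (limma, adjusted p = 0.126 and 0.938). At 60 min it was 0.73 (SE 0.13, limma, adjusted p = 3.5e-05) in CCNA-GFP cells but 0.019 (SE 0.11, limma, adjusted p = 0.874) in CTCF-AID cells without IAA, not called, and with equal totals both were below mitosis, at −0.56 and −0.89. At 120 min the difference was −0.21 (SE 0.13, limma, adjusted p = 0.13) in CCNA-GFP cells, not called, and −0.86 (SE 0.11, limma, adjusted p = 5.7e-07) in CTCF-AID cells without IAA, with 0.545% and 0.107% of all genes lower. Relative to the median gene it was −0.89 and −1.20. With equal totals it was called lower in both, at −1.30 and −1.40 (limma, adjusted p = 1.7e-06 and 2.8e-10).

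Cdk1, the kinase itself, had its highest mean at 50 min in both CTCF-AID arms. In CCNA-GFP cells the value at 50 min is 1 library, and as a ratio to mitosis of the same replicate Cdk1 was 2.06 there against 2.25 and 1.59 in the libraries at 60 min. Its level in CCNA-GFP cells was 4.91, 4.95 and 5.93 TPM in mitosis, 6.18 and 5.53 after 20 min, 6.58 and 6.79 after 30 min, 8.33 and 6.80 after 40 min and 13.3 after 50 min. It was 12.3 and 8.45 TPM after 60 min, 6.06 and 9.15 after 90 min, 4.99 and 4.82 after 120 min and 6.64, 7.44 and 9.48 in asynchronous cells. At 120 min the values overlapped those in mitosis and lay below all asynchronous libraries. Without IAA Cdk1 in CTCF-AID cells was at 7.52, 6.42 and 9.16 TPM in mitosis, 8.99 and 6.61 after 20 min, 11.0 and 7.80 after 40 min, 13.3 and 14.4 after 50 min and 10.8 and 8.21 after 60 min. It was at 5.74 and 7.61 TPM at 90 min, 5.0 and 4.39 TPM at 120 min and 7.14, 6.71 and 9.51 TPM in asynchronous cells, so that both libraries at 120 min lay below all mitotic and all asynchronous ones.

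Cdk1 exceeded mitosis at 60 min by 0.95 (SE 0.14, limma, adjusted p = 3.7e-06) in CCNA-GFP cells and by 0.38 (SE 0.11, limma, adjusted p = 0.00221) in CTCF-AID cells without IAA, and with equal totals both signs turned, to −0.25 and −0.50. At 120 min the difference was 0.026 (SE 0.14, limma, adjusted p = 0.867) in CCNA-GFP cells, not called, and −0.49 (SE 0.11, limma, adjusted p = 0.00036) in CTCF-AID cells without IAA. That was −0.65 and −0.83 from the median gene, with 3.07% and 0.791% of genes lower, and with equal totals −0.97 and −1.01, both called. Without the replicate block the 60 min difference without IAA was 0.27 (limma, adjusted p = 0.223), not called.

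Ccnb2, a B-type cyclin found mainly at the Golgi apparatus, had the smallest difference of the members at 60 min in CCNA-GFP cells. In CCNA-GFP cells it ran at 1.74, 1.20 and 1.97 TPM in mitosis, 2.16 and 1.25 after 40 min, 2.43 after 50 min, 2.24 and 1.45 after 60 min, 1.43 and 1.38 after 120 min and 1.97, 1.66 and 2.67 in asynchronous cells. No neighbouring stages in the order of its means were apart in all their libraries in this arm. Its levels in CTCF-AID cells without IAA were 2.04, 1.56 and 2.38 TPM in mitosis, 2.95 and 1.59 after 40 min, 3.18 and 3.12 after 50 min, 2.65 and 1.46 after 60 min, 2.05 and 1.34 after 120 min and 1.95, 1.39 and 2.09 in asynchronous cells. Replicate 2 held the lowest value at each of these stages at which it was measured, in both arms. The difference from mitosis at 60 min was 0.21 (SE 0.11, limma, adjusted p = 0.073) in CCNA-GFP cells and 0.091 (SE 0.09, limma, adjusted p = 0.366) in CTCF-AID cells without IAA, neither called. With IAA it was 0.27 (SE 0.09, limma, adjusted p = 0.0123), which was called, but without replicate 1 it was 0.0079 (limma, adjusted p = 0.931) and without replicate 2 it was 0.48 (adjusted p = 0.000588). With all replicates these were −0.58, −0.54 and −0.37 from the median gene, and with equal totals Ccnb2 was called lower than in mitosis in all 3 arms, at −0.67, −0.56 and −0.39.

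The second question was how the members changed late after release. From 60 to 120 min 4 members were called lower in CCNA-GFP cells, 4 without IAA and 5 with IAA, or 2 with IAA without replicate 1, beside 28.5%, 53.1% and 50.8% of all genes. Ccnb1 fell by 0.94 in CCNA-GFP cells, 0.88 without IAA and 0.93 with IAA on the log2 scale (limma, adjusted p = 5.9e-05, 2.7e-06 and 1.2e-06). Cdk1 fell by 0.93, 0.87 and 0.92 (adjusted p = 0.00015, 2.2e-06 and 9.9e-07). Both were lower at 120 min in every replicate that holds both times, 2 of 2 in each arm. On log2(TPM + 1) 1.63% and 1.74% of genes fell further than Ccnb1 and Cdk1 in CCNA-GFP cells, and 3.94% and 4.11% without IAA. That scale understates changes of genes with low TPM, and the part of the high levels of Ccnb1 and Cdk1 in these ranks was not tested. With equal totals both were still called lower in all 3 arms, Ccnb1 at −0.74, −0.51 and −0.56 and Cdk1 at −0.72, −0.51 and −0.56. Ccna2 fell by 0.62, 0.47 and 0.51 and Ccnf by 0.55, 0.50 and 0.39 on the deposited scale, all called, and with equal totals these 2 genes were called lower in CCNA-GFP cells and in no CTCF-AID arm. Ccnb2 fell by 0.28 with IAA (adjusted p = 0.0243), and its differences of −0.23 in CCNA-GFP cells and −0.17 without IAA were not called, the latter turning to 0.092 with equal totals. Leaving out replicate 1 ended 5 of these calls, namely Ccna2 at −0.42 without IAA and −0.44 with IAA (limma, adjusted p = 0.0986 and 0.0916), Ccnf at −0.28 in CCNA-GFP cells and −0.26 with IAA (adjusted p = 0.319 and 0.0869) and Ccnb2 at −0.079 with IAA (adjusted p = 0.51). Without replicate 2 Ccnf in CCNA-GFP cells was at −0.82 and Ccnb2 with IAA at −0.47, both called, and without replicate 3 Ccnb2 with IAA was not called (adjusted p = 0.0581). The Ccnb2 difference in CCNA-GFP cells ran from −0.42 to −0.044 with 1 replicate left out, called in no case. Without the block Ccna2 in both CTCF-AID arms, Ccnf in all 3 arms and Ccnb2 with IAA were not called. Over all genes the count called lower in CCNA-GFP cells fell from 2824 to 631 without replicate 1, 1195 without the block, 1379 with the step factor and 2148 with equal totals. Without and with IAA it fell from 5431 and 5196 to 2717 and 2786 with equal totals and to 3396 and 3387 without the block, and with IAA to 3418 without replicate 1.

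**Figure D3:**
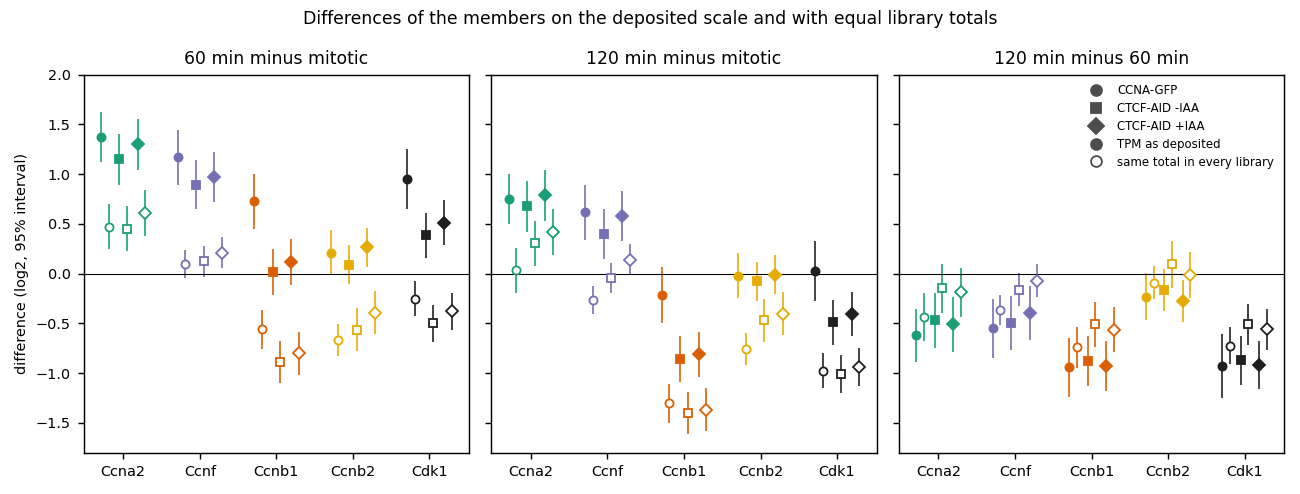
Log2 differences (vertical axis) of the 5 genes (horizontal axis) for 60 min minus mitotic, 120 min minus mitotic and 120 min minus 60 min, as limma estimates with 95% intervals in the 3 arms (symbols). Filled symbols are TPM as deposited and open symbols the same total in every library. At 60 min minus mitotic Ccnb1, Ccnb2 and Cdk1 lie below 0 on the open symbols in all arms while Ccna2 lies above 0 on both, and at 120 min minus 60 min Ccnb1 and Cdk1 lie below 0 on both.

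Asynchronous cells, a mixture of all phases, were then compared with 120 min. Ccnb1 and Cdk1 were called higher in asynchronous cells in all 3 arms, and Ccnb2 in CCNA-GFP cells. The counts of members higher were 3, 2 and 2 of 5 in CCNA-GFP, without IAA and with IAA, while 5.86%, 7.25% and 8.43% of all genes were called higher. Ccnb1 was higher by 0.31, 0.66 and 0.52 (limma, adjusted p = 0.0416, 3.2e-05 and 0.00043). Cdk1 was higher by 0.46, 0.50 and 0.49 (adjusted p = 0.00826, 0.00045 and 0.00061), more than 98.4%, 98.5% and 98.1% of genes. With equal totals both were called higher in all 3 arms too, but so were 2472 of 9911, 2837 of 10237 and 2992 of 10237 genes, against 581, 742 and 863 as deposited. Divided by the step factor 1909 and 1905 genes were higher without and with IAA, and without the block 354, 351 and 445 in the 3 arms. Without replicate 2 the CCNA-GFP arm gave 0 such calls among the members, and without replicate 1 or replicate 3 it gave 1. Ccna2 and Ccnf were called lower in asynchronous cells in both CTCF-AID arms, by 0.46 and 0.55 without IAA and 0.37 and 0.55 with IAA on the log2 scale, 2 of 5 members in each arm beside 51% and 47.2% of all genes. With equal totals 2653, 2751 and 2686 genes were called lower in CCNA-GFP, without IAA and with IAA, against 6280, 5218 and 4827 as deposited. The step factor gave 2881, 2136 and 2353 genes lower, and omitting the block 3533, 2449 and 2292. In CCNA-GFP cells 0 of 5 members were called lower beside 63.4% of all genes, with −0.16 for Ccna2 and −0.29 for Ccnf, which turned to 0.22 and 0.14 with equal totals. With equal totals Ccnf was still called lower in both CTCF-AID arms, and Ccna2 in neither. Without replicate 3 the Ccna2 difference with IAA was −0.28 (limma, adjusted p = 0.126), not called. Without the block Ccnb1 and Ccnb2 in CCNA-GFP cells and Ccna2 and Ccnf in both CTCF-AID arms were not called.

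When the stages of each member were put in order of their mean, the libraries of neighbouring stages did not overlap in 36 of 110 cases over the 5 genes and 3 arms. The same was not counted for all genes, and the order was taken from these same values. The counts therefore describe the spread of the members' libraries and set no member apart from other genes. For Ccna2 with IAA this held for 5 of 7 neighbours, and the pairs that overlapped were 40 with 60 min and 20 min with mitosis. For Ccnb2 it held for 0 of 8 in CCNA-GFP cells and 1 of 7 in each CTCF-AID arm, where 50 min, which has no library of replicate 2, stood above the rest. For Ccnb1 and Cdk1 120 min was the lowest stage in all arms.

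The third question was whether loss of CTCF, the architectural protein that anchors chromatin loops, altered the members. The depletion acts on the protein, so Ctcf pre-mRNA does not check it. Ctcf was 5.74, 6.15 and 6.78 TPM in mitosis and 9.69 and 10.1 after 60 min without IAA, and 6.41, 6.10 and 7.18 and 10.4 and 10.9 with IAA, and was not called between the arms at any stage. Cells with IAA were compared with cells without it at each of 8 stages by limma, and a gene was called at an adjusted p below 0.1 and an absolute log2 difference above 0.2. Of the 40 pairs of a member and a stage 0 were called, and 0 had an unadjusted p below 0.05. Of all genes 0% were called in mitosis, 0% after 20 min, 0% after 40 min, 0.283% after 50 min, 0.225% after 60 min, 0.733% after 90 min, 0.586% after 120 min and 1.01% in asynchronous cells. In mitosis, after 20 min and after 40 min 23, 31 and 85 genes had an unadjusted p below 0.05. The members' differences ran from −0.16 (Ccnf in mitosis) to 0.22 (Ccnb1 at 50 min), and their 95% intervals reached from −0.59 to 0.67. With the replicate block, which pairs libraries of equal number, the intervals reached from −0.42 to 0.46, and effects within those were not detectable at this spread between libraries. The block also raised the counts over all genes, to 2 called after 40 min, 101 instead of 29 after 50 min, 103 instead of 23 after 60 min, 175 instead of 75 after 90 min, 146 instead of 60 after 120 min and 249 instead of 103 in asynchronous cells. Leaving out a replicate, which leaves 1 library an arm at each stage that loses one of 2, lowered the counts without the block, and the part of the lost samples in this was not tested. Without replicate 1 at most 2 genes were called at each of these stages, without replicate 2 the counts fell to 6 after 60 min and 15 after 120 min, and without replicate 3 to 0 after 50 min, 11 after 90 min and 49 in asynchronous cells. With equal totals 8 genes were called after 40 min, 67 after 50 min, 71 after 60 min, 126 after 90 min, 123 after 120 min and 192 in asynchronous cells. The 29 genes after 50 min became 8 with the step factor and 14 with a pseudocount of 0.1.

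Levels with IAA covered much the same range. Ccna2 was at 1.47, 1.08 and 1.69 TPM in mitosis, 6.89 and 4.00 after 40 min, 6.93 and 7.29 after 50 min, 5.11 and 4.11 after 60 min, 3.10 and 2.76 after 120 min and 2.42, 2.04 and 2.14 in asynchronous cells with IAA. Ccnb1 was at 13.2, 9.56 and 12.4 TPM, 21.6 and 16.4, 19.0 and 19.3, 13.0 and 11.3, 6.53 and 5.27 and 9.43, 8.79 and 9.72 at these stages. Cdk1 was at 7.30, 6.45 and 8.24 TPM, 11.3 and 7.51, 14.4 and 14.8, 11.7 and 8.47, 4.88 and 4.72 and 7.04, 7.21 and 9.29. At 120 min the libraries with IAA of Ccna2, Ccnb1 and Cdk1 overlapped those without IAA. At 50 min the 2 libraries with IAA lay above the 2 without it for Ccna2, Ccnb1, Ccnb2 and Cdk1, while those of Ccnf overlapped. The share of all genes with libraries so ordered was not counted. None of these differences at 50 min was called or had an unadjusted p below 0.05, so the order is a description only. The effect of IAA on the change from mitosis to 60 min, tested as an interaction, was 0.15 for Ccna2 (95% interval −0.43 to 0.74), 0.10 for Ccnb1 (−0.48 to 0.68), 0.17 for Ccnb2 (−0.43 to 0.78), 0.074 for Ccnf (−0.46 to 0.60) and 0.13 for Cdk1 (−0.45 to 0.71). Of the members 0 were called in it, beside 0% of all genes, of which 79 and 0 members had an unadjusted p below 0.05. With equal totals 4 genes were called in it. With the replicate block 22 genes and 0 members were called, and the members' intervals reached from −0.27 (Ccnf) to 0.51 (Ccna2).

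**Figure D4:**
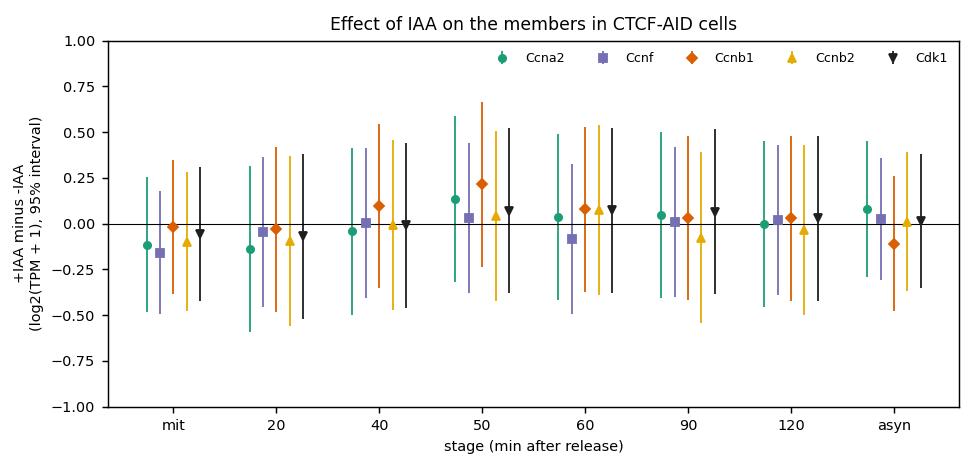
Difference between CTCF-AID cells with and without IAA in log2(TPM + 1) (vertical axis) of the 5 genes at 8 stages (horizontal axis, minutes after release; mit, mitotic; asyn, asynchronous), as limma estimates with 95% intervals. The estimates lie between −0.16 and 0.22 and every interval spans 0.

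The genes most alike to each member were sought over the 25 means of a stage and arm, by Pearson's r of log2(TPM + 1) centred within each table, for the 6604 genes whose mean reached 1 TPM in each of the tables. These means share libraries, replicates and the rise common to most genes, so r is a description only. Ccna2 was most like Akip1 (r = 0.991), Spc25 (r = 0.987), a kinetochore gene, and Gcdh (r = 0.984). Ccnf was most like Ttll12 (r = 0.983), the chromatin remodeller gene Smarca5 (r = 0.982) and Pip4k2b (r = 0.982). Ccnb1 was most like Arl6ip1 (r = 0.973), Cks2 (r = 0.947), which encodes a small subunit of Cdk complexes, and the mitotic kinase gene Aurka (r = 0.943). Cdk1 was most like Cenpf (r = 0.973), a kinetochore gene, Pak4 (r = 0.949) and the importin gene Kpna2 (r = 0.948). Ccnb2 was most like Tcf15 (r = 0.888), Cenpm (r = 0.870) and Hmmr (r = 0.869). Among the members, the closest pairs were Ccna2 with Ccnf (r = 0.923) and Ccnb1 with Cdk1 (r = 0.882), and the least close was Ccnb1 with Ccnf (r = 0.454). With equal totals the nearest gene changed for 3 members, to Ddx5 for Ccna2 (r = 0.964), Exoc3l for Ccnb2 (r = 0.933) and Aldh2 for Ccnf (r = 0.884), and 0 of the 3 genes named for Ccnb2 and 0 of the 3 for Ccnf stayed among the nearest 3. For the other members 1 of 3 stayed, Akip1 for Ccna2, Arl6ip1 for Ccnb1 and Cenpf for Cdk1, so that Cks2 and Aurka were no longer among the nearest 3 of Ccnb1. On that scale Ccnb1 with Cdk1 was the closest pair (r = 0.935), Ccna2 with Ccnf had r = 0.662, the least close pair was Ccna2 with Ccnb2 (r = −0.182), and Arl6ip1 and Cenpf stayed nearest to Ccnb1 (r = 0.976) and Cdk1 (r = 0.966).

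The members act with other genes, which were taken from 7 lists by their role and described by counts and medians. At 60 min 88.3% of all genes were called higher than in mitosis in CCNA-GFP cells as deposited, and the counts of the lists are to be read beside that share. With equal totals 3607 genes were called higher and 3302 lower of 9911. Among subunits of Cdk complexes Cks1b and Cks2, 2 of 3 listed, were both called higher than in mitosis at 60 min in CCNA-GFP cells, by 1.65 and 1.01 (with equal totals Cks2 turned below 0 and was called lower), and lower at 120 min than at 60 min, at −0.87 and −0.83. Of the kinases and phosphatases that set Cdk1 activity, 7 of 8 were called higher at 60 min, from Cdc25a (1.85), a phosphatase that removes the inhibitory phosphates of Cdks, to Mnat1 (−0.052, not called), a subunit of the Cdk-activating kinase. Their median was 1.14, beside 0.79 over all genes, and with equal totals 4 of the 8 were called higher and 1 lower. Of the mitotic entry kinases and phosphatase inhibitors 6 of 6 were called higher, with a median of 1.05, from Ensa (1.94), an inhibitor of the phosphatase that opposes Cdk1, to Bora (0.75), an activator of Plk1, which turned below 0 with equal totals as did Mastl, leaving 3 called higher and 1 lower. Of 5 genes of cyclin destruction 5 were called higher, with a median of 1.03, from Fbxo5 (1.90), an inhibitor of the anaphase-promoting complex, to Fzr1 (0.76), its activator in G1, which turned below 0 with equal totals as did Cdc20, leaving 2 called higher and 2 lower.

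Of 10 genes for transcription in G2 and mitosis 10 were called higher at 60 min in CCNA-GFP cells, with a median of 1.24, from Rbbp4 (1.71) to Foxm1 (0.51), the forkhead factor of G2, and with equal totals Foxm1, Lin9, Mybl2 and Nfyc turned below 0, with 6 called higher and 3 lower. Of 7 listed partners and substrates of cyclin F 7 were called higher, with a median of 1.58, from Cdc6 (1.82), a replication licensing factor, to Cul1 (0.53), the scaffold of the SCF ligase, which turned below 0 with equal totals, leaving 6 called higher and 1 lower. Of 8 listed G1 cyclins, kinases and inhibitors 7 were called higher, with a median of 1.80, from Cdk2 (2.14) to Cdk6 (0.013, not called, below 0 with equal totals), and with equal totals 7 were called higher and 1 lower. The members themselves had a median of 0.95 at 60 min, or −0.25 with equal totals, beside 0.77 for the G1 genes with equal totals. In CTCF-AID cells without IAA the medians at 60 min were 0.57 for the Cdk subunits, 0.72, 0.79, 0.73, 0.94, 1.02 and 1.46 for the other lists in the order given, 0.38 for the members and 0.63 for all genes. With equal totals these medians were −0.27 for the Cdk subunits, 0.12, 0.074, −0.12, 0.26, 0.25 and 0.96 for the other lists, −0.50 for the members and 0.058 for all genes.

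At 120 min against 60 min the medians in CCNA-GFP cells were −0.85 for the Cdk subunits (2 of 2 called lower), −0.30 for the kinases and phosphatases on Cdk1 (4 of 8 lower, 1 higher), −0.22 for the mitotic entry kinases (2 of 6 lower), −0.56 for cyclin destruction (4 of 5), −0.22 for G2 and mitotic transcription (4 of 10), −0.39 for the partners and substrates of cyclin F (4 of 7) and −0.62 for the G1 genes (7 of 8). The members had a median of −0.62 (4 of 5 lower, also with equal totals) and all genes one of −0.11, with 28.5% called lower. The 2 genes of the mitotic entry list that were called lower were Aurka (−1.12) and Plk1 (−0.68), kinases of the spindle. Without IAA the same medians were −0.97, −0.45, −0.23, −0.74, −0.35, −0.52 and −1.03, with −0.50 for the members and −0.27 for all genes. With equal totals they were −0.62, −0.15, 0.10, −0.38, −0.044, −0.15 and −0.72, with −0.16 for the members and −0.0085 for all genes. With equal totals in CCNA-GFP cells the counts called lower and higher were 2 and 0 for the Cdk subunits, 4 and 1 for the kinases and phosphatases on Cdk1, 2 and 2 for the mitotic entry kinases, 4 and 0 for cyclin destruction, 4 and 2 for G2 and mitotic transcription, 2 and 2 for the partners and substrates of cyclin F and 6 and 1 for the G1 genes, beside 2148 and 2420 of all 9911 genes. At 120 min against mitosis in CCNA-GFP cells 8 of 8 G1 genes were called higher with a median of 0.95 and 2 of 5 members with a median of 0.026, beside 90.2% of all genes with a median of 0.68. With equal totals 4 G1 genes were called higher and 1 lower with a median of 0.29 (Ccne1 and Cdk6 turned below 0), and 0 members higher and 4 lower with a median of −0.76, beside 2849 genes higher and 2325 lower of all 9911.

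**Figure D5:**
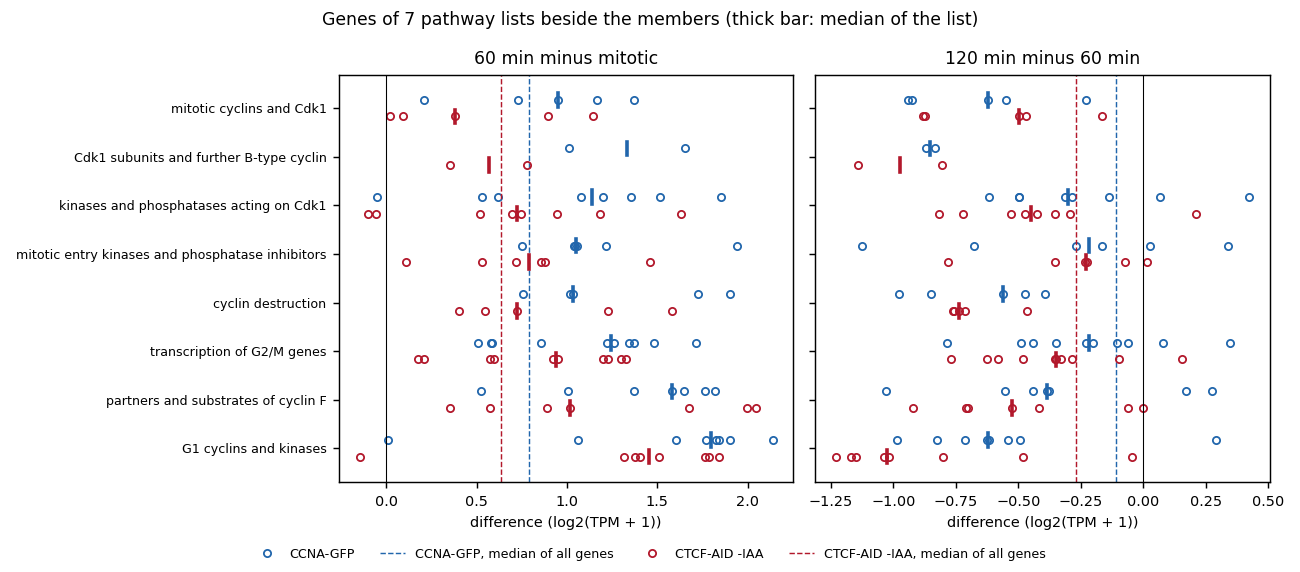
Log2 differences (horizontal axis) of the members and of the genes of 7 pathway lists (vertical axis) for 60 min minus mitotic and 120 min minus 60 min in CCNA-GFP cells and in CTCF-AID cells without IAA (colours). Circles are genes, thick bars the list medians and dashed lines the median of all genes. At 60 min the members' median lies at 0.95 in CCNA-GFP cells and at 0.38 in CTCF-AID cells without IAA, the lowest of the lists shown in both arms, and with equal totals at −0.25 and −0.50.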

How the data were processed

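Per the labels and the methods of the study, the authors made ribo-depleted, stranded, paired-end libraries and aligned them to mm10 with STAR. They counted with RSEM against Gencode vM12, to which every gene's unspliced form had been added. They deposited the TPM of that form for curated RefSeq genes whose mean exceeded 0.5 TPM when asynchronous or in 2 or more released samples. Whole reads cannot be recovered from TPM. Each library's values are multiples of a step that differs between libraries, by a factor not given in the sources used here. Whether the 2 tables share a normalisation is not given in the sources used here, and no test was made between them. In the asynchronous columns of the CTCF-AID table the stage is garbled and was read as asynchronous.

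Tests used limma 3.58.1 in R 4.3.3 on log2(TPM + 1), with eBayes trend and Benjamini-Hochberg adjustment over all genes of a comparison. A difference on this scale understates changes of genes with low TPM. Stage contrasts had the replicate as a block. IAA contrasts had none, after the thresholds of the study's methods, whose count test could not be run on TPM. Equal replicate numbers paired libraries: deviations from stage means had r above 0.1 for 20 of 20 (CCNA-GFP) and 88 of 88 (CTCF-AID) stage pairs. Replicates are 3 experiments by the study's methods. No library copied another (Spearman's rho 0.918–0.984 between replicates). The CCNA-GFP stage of 50 min, with 1 library, was not tested. The code of the fits was run on simulated data with independent noise and neither replicate effects nor shifts of scale between libraries. That run checked the code and does not bear on the calls reported here. Figures and other values used Python 3.11.15, pandas 2.3.3, numpy 2.4.6 and matplotlib 3.10.9.

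The members, the gene lists and the rule for named genes were chosen with earlier results of these data known. Named were the members, the highest and lowest gene of each list at 60 min in CCNA-GFP cells, the 3 genes most like each member, Ctcf and cell type markers. Aurka and Plk1 in the fall from 60 to 120 min were named after their values were seen. Alternatives were a pseudocount of 0.1, a filter at a mean of 1 TPM, equal totals, division by the step factor and no trend. Further ones were the opposite choice of replicate block and each replicate left out. A stage then reduced to 1 library has no spread of its own, so the spread came from the other groups.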

Additional observations from a re-analysis of the deposited data

Results flagged for a closer look

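For 3 members all libraries of CCNA-GFP cells moved one way from mitosis and all libraries of a CTCF-AID arm the other way at the same stage. These differences between lines were not tested, since the tables may have been normalised separately. Cdk1 at 90 min was higher than in mitosis by 0.35 in CCNA-GFP cells (2 of 2 replicates) and lower by a difference of −0.30 without IAA and −0.18 with IAA (2 of 2 each). In asynchronous cells Ccnb2 was higher than in mitosis by 0.23 in CCNA-GFP cells and differed by −0.091 in CTCF-AID cells without IAA (3 of 3 replicates each). Ccnf likewise differed by 0.33 in CCNA-GFP cells and −0.15 in CTCF-AID cells without IAA (3 of 3 each). Neither asynchronous CTCF-AID difference was called, and both turned positive, to 0.10 and 0.050, when libraries were divided by the step factor. With equal totals no direction was opposite. Ccnb2 in asynchronous cells was then called lower in both, at −0.17 and −0.23 (limma, adjusted p = 0.0443 and 0.0408), Ccnf was at −0.12, not called, and −0.31 (adjusted p = 0.00055), and Cdk1 at 90 min was called lower in all 3 arms, at −0.69, −0.84 and −0.74. Relative to the median gene the Cdk1 differences at 90 min were −0.38, −0.70 and −0.59, below 0 in each arm. The opposite directions are thus those of the deposited scale.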

How the results depend on the processing

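Of 90 log2 differences of single members 64 were called, and a pseudocount of 0.1, the filter at a mean of 1 TPM or a fit without trend ended 0 of these calls. Leaving out a replicate ended 15 (replicate 1), 7 (replicate 2) and 7 (replicate 3) of them, dividing by the step factor 4, omitting the replicate block 27 and equal totals 16. Among the 90, a called difference turned its sign in 14 cases, all with equal totals. The cause beyond the scaling itself was not tested. TPM carry no depth, and 2 libraries at most stages limit what can be called.

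The 90 differences do not include 50 and 90 min. Among them, those from mitosis that turned with equal totals were, for Ccnb1, −0.56 (CCNA-GFP), −0.89 (without IAA) and −0.80 (with IAA) at 60 min and −0.47 in asynchronous CCNA-GFP cells. For Ccnb2 they were −0.29, −0.26 and −0.13 at 40 min and −0.67, −0.56 and −0.39 at 60 min in the same order of arms, −0.17 in asynchronous CCNA-GFP cells and −0.14 in asynchronous cells with IAA. For Ccnf they were −0.027 at 40 min, −0.26 at 120 min and −0.12 in asynchronous CCNA-GFP cells, −0.042 at 120 min without IAA and −0.14 in asynchronous cells with IAA. For Cdk1 they were −0.25 at 60 min, −0.97 at 120 min and −0.031 in asynchronous CCNA-GFP cells, −0.21 at 40 min, −0.50 at 60 min and −0.16 in asynchronous cells without IAA, and −0.13, −0.38 and −0.12 at these stages with IAA. Asynchronous against 120 min turned to 0.22 (Ccna2) and 0.14 (Ccnf) in CCNA-GFP cells and 0.24 (Ccnb2) without IAA, and 120 against 60 min to 0.092 (Ccnb2) without IAA. Beyond the 90, Ccnb1, Ccnb2 and Cdk1 turned at 50 min, to −0.53, −0.31 and −0.18 without IAA and −0.35, −0.20 and −0.095 with IAA. At 90 min Ccnf turned to −0.13 in CCNA-GFP cells and without IAA, and Cdk1 to −0.69 in CCNA-GFP cells.

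Equal totals left 1, 1 and 2 members called higher at 40 min, 1, 1 and 2 at 60 min and 0, 1 and 1 at 120 min (CCNA-GFP, without IAA, with IAA), 4 called lower at 120 min than in mitosis in CCNA-GFP cells, and 2 and 2 lower at 120 than at 60 min in the CTCF-AID arms. Without the replicate block 2, 2 and 3 members were called higher at 40 min, 2 at 60 min with IAA, 1 at 120 min in CCNA-GFP cells and 1 without IAA, 1 higher in asynchronous CCNA-GFP cells than at 120 min, and 2 and 2 lower at 120 than at 60 min in the CTCF-AID arms. Uncalled values that turned without the block were −0.046 (Ccnb1, 60 min) and 0.064 (Ccnb2, asynchronous against 120 min) without IAA and −0.082 (Cdk1, 120 min, CCNA-GFP). With the replicate block added to the IAA comparisons 0 of 40 pairs of a member and a stage were called, the smallest adjusted p was 0.968, the intervals ran from −0.42 to 0.46, and over all genes more were called at each stage from 40 min on and in asynchronous cells. The step factor turned 6 uncalled values, to 0.044 (Ccna2) for asynchronous against 120 min and −0.018 (Cdk1) at 120 min in CCNA-GFP cells, and to 0.21 (Ccnb2, against 120 min), 0.058 (Ccnb1), 0.10 (Ccnb2) and 0.050 (Ccnf) in asynchronous cells without IAA.

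With 1 replicate left out, uncalled values that turned ranged from −0.13 to 0.15 (Ccnb1, 60 min, without IAA), −0.15 to 0.12 (Ccnb2, 120 min, CCNA-GFP), −0.071 to 0.013 (Ccnb2, 120 min, with IAA), −0.027 to 0.072 (Ccnb2, asynchronous, with IAA), −0.011 to 0.35 (Ccnb2, 40 min, without IAA), −0.087 to 0.24 (Ccnb2, 60 min, without IAA), −0.063 to 0.045 (Ccnb2, asynchronous against 120 min, without IAA), −0.045 to 0.095 (Ccnf, asynchronous, with IAA), −0.0097 to 0.060 (Cdk1, 120 min, CCNA-GFP) and −0.0091 to 0.052 (Cdk1, asynchronous, without IAA). The members called higher ranged from 2 (without replicate 1) to 4 at 40 min in CCNA-GFP cells, 3 (without replicate 1) to 5 at 40 min with IAA, 1 (without replicate 2) to 2 at 120 min in each CTCF-AID arm and 0 (without replicate 2) to 1 in asynchronous against 120 min CCNA-GFP cells, and those called lower at 120 than at 60 min with IAA from 2 (without replicate 1) to 5.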
